A study of Mus musculus with 21 samples.

Results

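Chemically induced liver progenitors (CLiPs) are proliferating cells obtained in culture from the hepatocytes of C57BL/6 mice, female per the labels. Hepatic induction returns them toward a hepatocyte-like state by culture with oncostatin M and dexamethasone. The end states compared here are the 3 arrays of late CLiPs (replicates 1 and 2 at passage 12, replicate 3 at passage 11) and the 3 arrays of passage 1 (P1) CLiPs, each after 8 days with the inducers. These 6 arrays were chosen by their titles out of 21 in the series. The others hold 3 freshly isolated hepatocyte samples (replicate 3 also carries a P1 passage label and was taken as fresh by its title) and, for P1 and for late CLiPs, 3 samples at day 0 and 3 cultured to day 8 without inducers. The labels give C57BL/6 for all 7 groups and name no agent other than the inducers. They do not tell whether the replicates of a group are independent cultures or mice, so a p-value here covers only the spread among the deposited arrays, which may be technical.

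Oncostatin M signals through a receptor of the interleukin-6 family, which activates JAK kinases and STAT3. Dexamethasone activates the glucocorticoid receptor. In hepatocytes both inputs act with C/EBP factors on acute-phase genes, which code for plasma proteins made in inflammation, and both favour the maturation of fetal hepatocytes in culture. A mature hepatocyte is known for secreted plasma proteins, amino acid and drug metabolism, bile acid handling and gluconeogenesis.

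Levels are log2 processed signals relative to each array's 75th percentile, so that 0 is the level of the 75th percentile, and a difference of 1 is 2-fold. The 75th percentile signal was 466 to 573 on the P1 induced arrays and 881 to 1111 on the late induced arrays. Probes well above background made up 49.5% to 51.5% of a P1 array and 56.6% to 58.7% of a late one, and no spot was saturated. P1 and fresh arrays came from another scanner and version of the extraction software than the late arrays, and shared no slide with them, so a difference in level between them cannot be told apart from a difference in scanning. Large differences of bright probes are therefore put first. Differences were also set against the same contrast at day 0, since a constant offset of a probe between scanners cancels in the difference of the 2 contrasts (called the difference of changes). Near background it need not cancel, so genes not well above background at day 0 were also computed with every level raised to the lowest signal well above background on its array (called floored, an alternative chosen after seeing the data). Among reference genes and ribosomal protein genes, where little change was looked for, 0 of 24 were called, with a median of -0.16. Their median level was 7.58 to 7.92 on the induced arrays, so they cannot show the offset at lower levels. Even at their own level, scanner and passage cannot be told apart, so this value does not measure the offset.

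Of 20481 genes tested, 1911 were higher and 2423 lower in the late end state (limma, Benjamini-Hochberg adjusted p under 0.05 and at least 2-fold), which is 9.33% and 11.8%. After quantile normalization the balance turned, with 2320 higher and 2114 lower. The 3 arrays of each group did not overlap for 65% of the tested genes. The median difference was -0.02 over all tested genes and between -0.08 and 0.07 in each of 4 brightness classes. Genes called at 4-fold or more with a mean over the 6 arrays at or above 0 (as for 53.7% of those tested), called large and bright below, numbered 127 higher and 344 lower (0.62% and 1.68% of those tested). Among 16509 genes too dim to be tested, the late arrays were lower by at least 2-fold for 59.2% and higher for 1.17%. Values near background thus differ between the 2 sets, where scan and passage cannot be told apart. Genes above background on no array of 1 induced group are therefore given only as bounds at the end state. Genes well above background on 2 of 3 late arrays are given a fold difference, which rests in part on such values.

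**Figure D1:**
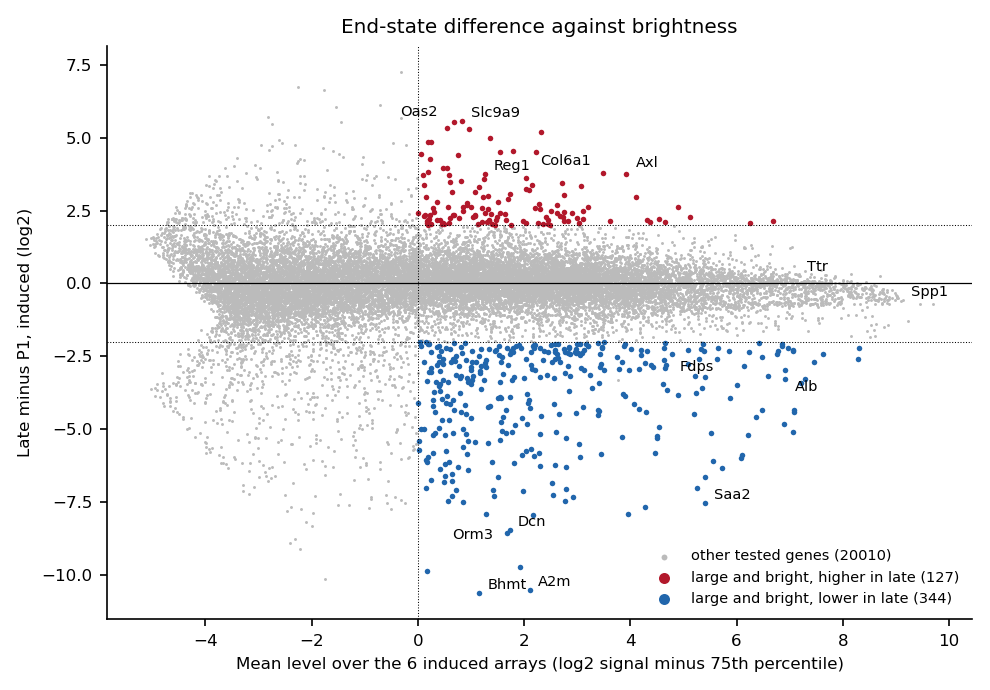
Each point is a tested gene, with its mean level over the 6 induced arrays on the x axis (log2 signal minus 75th percentile) and the late minus P1 difference on the y axis (log2). The 344 large and bright genes lower in late (blue) reach -10.62 and the 127 higher (red) reach 5.56, while the bulk of genes (grey) lies around 0 at every brightness.

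Markers of hepatocytes and of progenitors were well above background in both end states. Of 21 secreted hepatocyte protein genes, 21 in P1 and 17 in late were well above background on all 3 arrays, with summed levels (linear, relative to the 75th percentile) of 6500 to 7870 and 1800 to 2610, against 19000 to 20700 in fresh hepatocytes. Of 30 biliary and progenitor genes, 27 in P1 and 24 in late were well above background on all 3 arrays, with sums of 979 to 1070 and 843 to 1150.

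Acute-phase genes were lower in late almost throughout. Of 28 members, 26 were lower and 0 higher in late, with a median of -3.49. The protease inhibitor gene A2m had levels of 7.29, 7.04 and 7.77 on the P1 arrays and -3.23, -3.11 and -3.11 on the late arrays. No array of either group came near the other, and A2m was lower by 1460-fold (log2 difference -10.51, SE 0.327, limma adjusted p = 1.5e-12). In fresh hepatocytes its mean level was -5.23, so the P1 end state was far above the fresh cells and the late end state was not. Serum amyloid genes behaved alike. Saa2, whose product is carried on high-density lipoprotein in inflammation, was at 9.14, 8.82 and 9.58 in P1 and at 2.16, -0.49 and 3.26 in late. Saa1 was at 8.62, 8.35 and 9.21 in P1 and at 2.31, 0.76 and 3.19 in late. Both genes stood well apart between the groups, with adjusted p of 1.2e-06 for Saa2 and 2.1e-08 for Saa1 (limma), and in late they stayed below their fresh means of 5.67 and 4.86.

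The orosomucoid genes code for abundant plasma carriers of the acute phase. Orm3 was lower by 375-fold, Orm2 by 205-fold and Orm1 by 130-fold. Orm2 lay at 8.04, 7.75 and 8.54 in P1 and at 0.04, -1.87 and 3.13 in late, which shows how much the late arrays differed among themselves. Hamp, the gene of the iron hormone hepcidin, was well above background on all 3 P1 arrays (3.95, 3.15 and 2.83) and on none of the late arrays, and was at least 233-fold lower. Mug1, a relative of A2m, was lower by 245-fold. Saa1 and Saa2, the Orm genes, Mup20 and the Oas1 genes described later have near-identical copies, so their probes may share signal.

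The promoters of Saa1, Saa2 and Hamp are shown because these genes, which answer to C/EBP and STAT3, were among those furthest apart (RefSeq, GRCm38.p6, 250 bases before to 50 after the start). Capitals mark TTGCNNAA, a C/EBP-like motif, in the Saa genes and TTCNNNGAA, a STAT-like motif, in Hamp, both searched on either strand.
Saa1 (chr7:46742931-46743230, minus strand): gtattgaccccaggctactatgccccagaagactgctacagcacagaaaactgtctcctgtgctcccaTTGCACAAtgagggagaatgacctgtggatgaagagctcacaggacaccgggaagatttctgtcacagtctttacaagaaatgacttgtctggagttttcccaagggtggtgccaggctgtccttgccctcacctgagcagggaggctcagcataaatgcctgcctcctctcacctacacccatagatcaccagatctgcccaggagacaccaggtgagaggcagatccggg
Saa2 (chr7:46751583-46751882, plus strand): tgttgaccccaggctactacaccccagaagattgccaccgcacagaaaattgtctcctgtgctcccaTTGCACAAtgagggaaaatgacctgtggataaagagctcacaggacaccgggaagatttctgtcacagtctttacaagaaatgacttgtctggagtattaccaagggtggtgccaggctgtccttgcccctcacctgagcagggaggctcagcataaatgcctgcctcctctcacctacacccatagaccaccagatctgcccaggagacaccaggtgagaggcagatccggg
Hamp (chr7:30943980-30944279, minus strand): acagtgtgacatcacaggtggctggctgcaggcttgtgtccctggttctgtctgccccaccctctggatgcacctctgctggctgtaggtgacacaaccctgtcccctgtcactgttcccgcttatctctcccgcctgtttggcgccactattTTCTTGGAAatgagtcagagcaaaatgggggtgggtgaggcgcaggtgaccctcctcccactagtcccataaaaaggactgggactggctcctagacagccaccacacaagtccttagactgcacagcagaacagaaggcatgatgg
The C/EBP-like motif was in a promoter of 12 of the 20 acute-phase genes matched in the RefSeq table and of 12.2% of all its genes. The STAT-like motif was in 6 of the 20 and in 9.55%. Among the large and bright genes with a promoter in the table, the C/EBP-like motif was in 45 of 227 that were lower and in 13 of 83 that were higher. These counts describe the letters in the window only.

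Genes of coagulation and complement, made by the liver and secreted to plasma, were lower in 28 of 33 cases and higher in 0 (median -4.36). Coagulation factor gene F10 was at 6.00, 5.89 and 6.65 in P1 and at -1.04, -4.57 and 2.36 in late. Replicate 3 of late was the highest and replicate 2 the lowest, by almost 7 units, yet all 3 lay below P1 (difference -7.26, 95% interval -9.93 to -4.6). Serpinc1, the antithrombin gene, was tighter, at 6.38, 5.93 and 6.64 in P1 and -0.70, -2.09 and 0.57 in late, a 133-fold difference. Another Serpinc1 probe, well above background on all 6 arrays, gave a difference of only -1.06. Cpb2, which codes for an inhibitor of fibrinolysis, was lower by 240-fold and F12 by 57.3-fold. F9 was lower by 130-fold, and it was well above background on 2 of 3 late arrays. C8a of the terminal complement complex was above background on no late array and at least 92.8-fold lower.

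The list of other secreted hepatocyte proteins had 18 of 21 members lower and 0 higher, with a median of -3.27. Albumin (Alb) was at 8.48, 8.43 and 8.70 in P1, close together and below the fresh mean of 9.67, and at 5.13, 3.22 and 7.45 in late. The late arrays all lay below P1 but spread over more than 4 units, and the difference of -3.27 (95% interval -5.15 to -1.39, limma adjusted p = 0.005) was not called with slide as a random block (adjusted p = 0.073). The apolipoprotein genes Apoc3, Apoc1 and Apoa1 were lower by 138-fold, 80.8-fold and 45.2-fold, Mup20 by 60.8-fold and Serpinf1 by 156-fold. Apoc3 was well above background on 2 of 3 late arrays. Another Apoc3 probe, well above background on all 6 arrays, gave a difference of only -0.57. Ttr, the thyroxine and retinol transport gene, was one of 3 members not called. It lay at 7.37, 7.27 and 7.53 in P1 and at 7.05, 7.26 and 7.48 in late. The groups overlapped, and the difference of -0.13 had a 95% interval of -0.74 to 0.49 (limma adjusted p = 0.73).

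**Figure D2:**
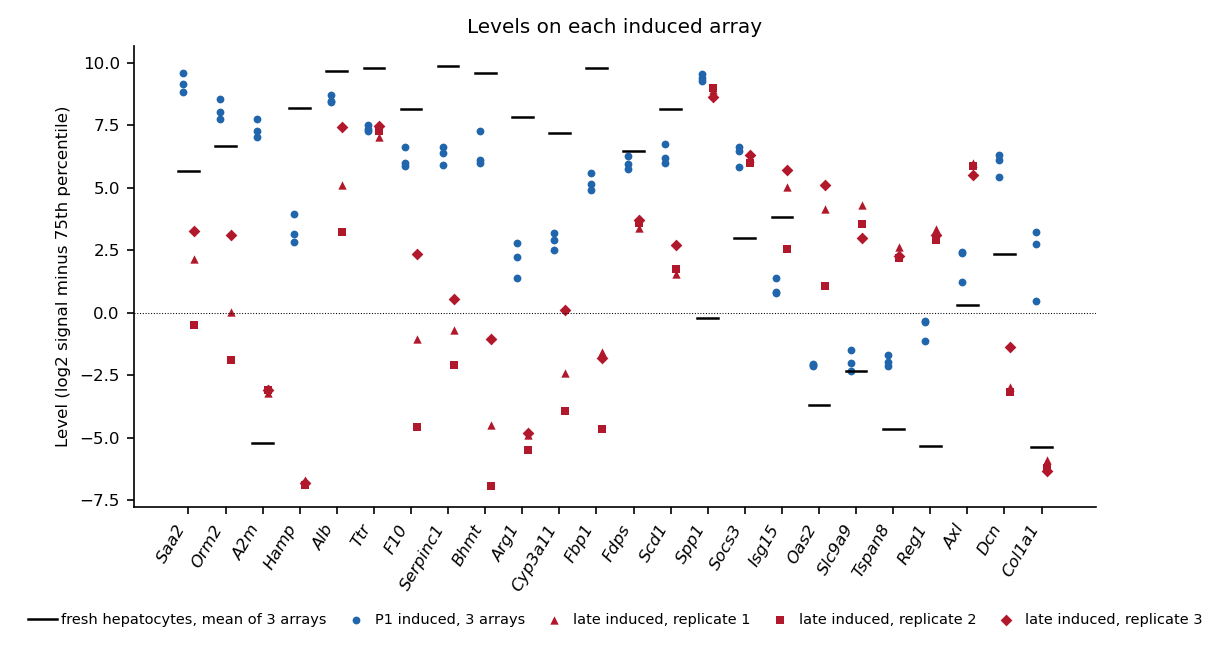
Levels of 24 genes (log2 signal minus 75th percentile) on the 3 P1 induced arrays (blue circles) and the 3 late induced arrays (red, a symbol for each replicate), with the mean of the 3 fresh arrays as a bar. The late symbols spread widely for Alb (3.22 to 7.45), F10 and Bhmt, and closely for A2m, Ttr, Spp1 and Fdps.

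The late arrays differed among themselves along these liver genes. Over the 344 large and bright genes that were lower in late, the median range across the 3 late arrays was 1.57, against 0.421 across the 3 P1 arrays. Late replicate 3 was the highest of the 3 for 268 of the 344 and replicate 2 the lowest for 234. The median level of the complement and coagulation list was 0.03, -0.91 and 2.82 on late replicates 1, 2 and 3, and 4.27, 4.17 and 4.56 on the P1 arrays. For the acute-phase list it was 2.44, 1.45 and 4.45 in late and 8.30, 8.05 and 8.71 in P1. Replicate 3 was passage 11 and lay on a slide of its own among the late induced arrays, so in these its passage and slide cannot be told apart. At day 0 and without inducers, late replicate 3 shared a slide with replicates 1 and 2. Without inducers, Alb was highest in replicate 3 (6.6 against 6.09 and 4.6) and F10 in replicate 1 (-2.06 against -6.92 and -3.3). The part of passage or slide was not tested. Set against fresh hepatocytes, the P1 mean was at least within 2-fold of the fresh mean, or above it, for 190 of these 344 genes, and the late mean for 71. The late-to-fresh comparison crosses the scanners and the P1-to-fresh comparison does not.

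Amino acid catabolism and the urea cycle had 27 of 33 tested members lower and 0 higher (median -3.23), of 34 on the array. Bhmt, which remethylates homocysteine with betaine, gave the largest difference of a large and bright gene. It was at 6.13, 5.99 and 7.26 in P1 and at -4.48, -6.95 and -1.06 in late, where 2 of 3 arrays were well above background (log2 difference -10.62, SE 1.17, limma adjusted p = 1.5e-06). Its neighbour in function, Bhmt2, was above background on no late array and at least 118-fold lower. Arg1, the arginase of the urea cycle, was likewise dim on every late array, after 2.24, 1.40 and 2.81 in P1, and at least 104-fold lower. Fresh hepatocytes had a mean of 7.83 for Arg1, so P1 too was far from them. The urea cycle entry enzyme gene Cps1 was lower by 23.1-fold, Cth by 44.4-fold, Tat by 18.6-fold and Tdo2 by 7.69-fold.

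Drug-metabolizing genes were lower in most but not all cases. In phase I metabolism 18 of 27 tested members were lower and 3 higher, and in phase II conjugation 15 of 22 were lower and 2 higher. Cyp3a11, the main inducible drug oxidase gene of mouse liver, was at 2.93, 2.51 and 3.18 in P1 and at -2.42, -3.92 and 0.12 in late, and the groups did not overlap (30.8-fold, limma adjusted p = 1.1e-05). Cyp2d26 was lower by 55.9-fold, Cyp2j5 by 19.5-fold, the glutathione transferase gene Gstm2 by 59.2-fold, the sulfotransferase gene Sult1a1 by 7.05-fold and the methyltransferase gene Nnmt by 6.87-fold. Against these, Akr1c19 of the aldo-keto reductases was higher by 8.71-fold, at 2.40, 1.75 and 2.48 in late and at -0.48, -1.13 and -1.13 in P1. Uox, the urate oxidase gene, was lower by 137-fold. Another Cyp2d26 probe, well above background on all 6 arrays, gave a smaller difference of -2.83.

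In gluconeogenesis and glycogen metabolism 9 of 18 tested members were lower and 2 higher. Fbp1, well above background on 2 of 3 late arrays, was lower by 238-fold and Pcx, the entry enzyme from pyruvate, by 34.6-fold. G6pc, which releases free glucose, was not called. It was at 2.96, 2.91 and 2.19 in P1 and at 0.93, 0.26 and 3.85 in late, with overlap, and its difference of -1.0 had a 95% interval of -2.77 to 0.76 (limma adjusted p = 0.32). Without late replicate 3 it was -2.09 and called (limma adjusted p = 0.026). In bile acid synthesis and transport 9 of 16 tested members were lower and 0 higher, and 7 more on the array were dim in both. Slc27a5, whose product activates bile acids for conjugation, was lower by 135-fold, and the canalicular exporters Abcb4 and Abcc2 by 10.4-fold and 8.35-fold. Slc25a47, a mitochondrial carrier gene of hepatocytes, was lower by 51.3-fold.

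Cholesterol synthesis was lower as a whole and with little spread. Of 24 members 21 were lower and 0 higher (median -1.56), a smaller median than those of the plasma protein lists. Fdps, which makes farnesyl diphosphate, was at 5.97, 5.75 and 6.27 in P1 and at 3.38, 3.59 and 3.72 in late (5.40-fold, limma adjusted p = 3.6e-08). Hmgcs1, Lss and Hsd17b7 were lower by 4.71-fold, 5.17-fold and 5.35-fold, and no late array of these genes overlapped P1. At day 0 the same list had 0 of 24 members lower and 0 higher (background 8.2% lower and 3.94% higher), with a median of -0.08. The difference of changes was called as lower for 20 of 24 and as higher for 0, where 4.57% and 5.53% of all tested genes were called so (10.1% in all). Without inducers the day-8 median of the list was -0.41. Fdps itself stood at 6.09, 6.18 and 5.76 in late day-0 cells and at 6.38, 6.2 and 6.34 in P1 day-0 cells.

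The Hmgcs1 promoter is shown as an example of this list, with TCACNNCA, a sterol-response-like motif searched on both strands, in capitals (RefSeq, GRCm38.p6).
Hmgcs1 (chr13:119690101-119690400, plus strand): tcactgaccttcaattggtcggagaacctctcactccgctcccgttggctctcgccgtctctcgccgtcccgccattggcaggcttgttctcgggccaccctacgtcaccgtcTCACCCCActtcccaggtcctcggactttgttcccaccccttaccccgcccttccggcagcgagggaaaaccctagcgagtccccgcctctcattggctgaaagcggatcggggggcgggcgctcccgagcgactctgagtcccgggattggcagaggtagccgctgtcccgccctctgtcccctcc
This motif was in a promoter of 9 of the 16 cholesterol synthesis genes matched and of 15.7% of all genes in the table.

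Lipogenesis had 11 of 26 members lower and 1 higher. Scd1, the stearoyl desaturase gene, was at 6.01, 6.19 and 6.74 in P1 and at 1.57, 1.76 and 2.71 in late (19.7-fold, limma adjusted p = 3.3e-08). Thrsp was lower by 69.6-fold and was well above background on 2 of 3 late arrays. The member that was higher was Cidea, which codes for a lipid droplet protein. It was at 3.08, 4.01 and 4.0 in late and at 0.19, 0.98 and 0.30 in P1, a 9.24-fold difference, and its fresh mean was -5.10.

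In the unfolded protein and ATF4 list 17 of 27 were lower and 0 higher (median -1.14). The pseudokinase gene Trib3 was lower by 6.87-fold, the mitochondrial serine enzyme gene Shmt2 by 4.55-fold and the chaperone gene Hspa5 by 2.92-fold, Hspa5 being at 7.54, 7.48 and 7.62 in P1 and at 6.09, 5.83 and 6.09 in late. In the list of glycolysis and hypoxia targets 8 of 24 were lower, 0 higher and 16 not called. The 8 included the oxygen-sensor gene Egln3 (3.41-fold), the lactate exporter gene Slc16a3 (3.11-fold), the mitophagy gene Bnip3 (2.59-fold) and the hexokinase gene Hk2 (3.48-fold). Without inducers the direction was the other for Slc16a3 and Egln3, which were higher in late by 2.58 and 1.88 at day 8 (limma adjusted p = 2.9e-06 and 5.8e-05).

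**Figure D3:**
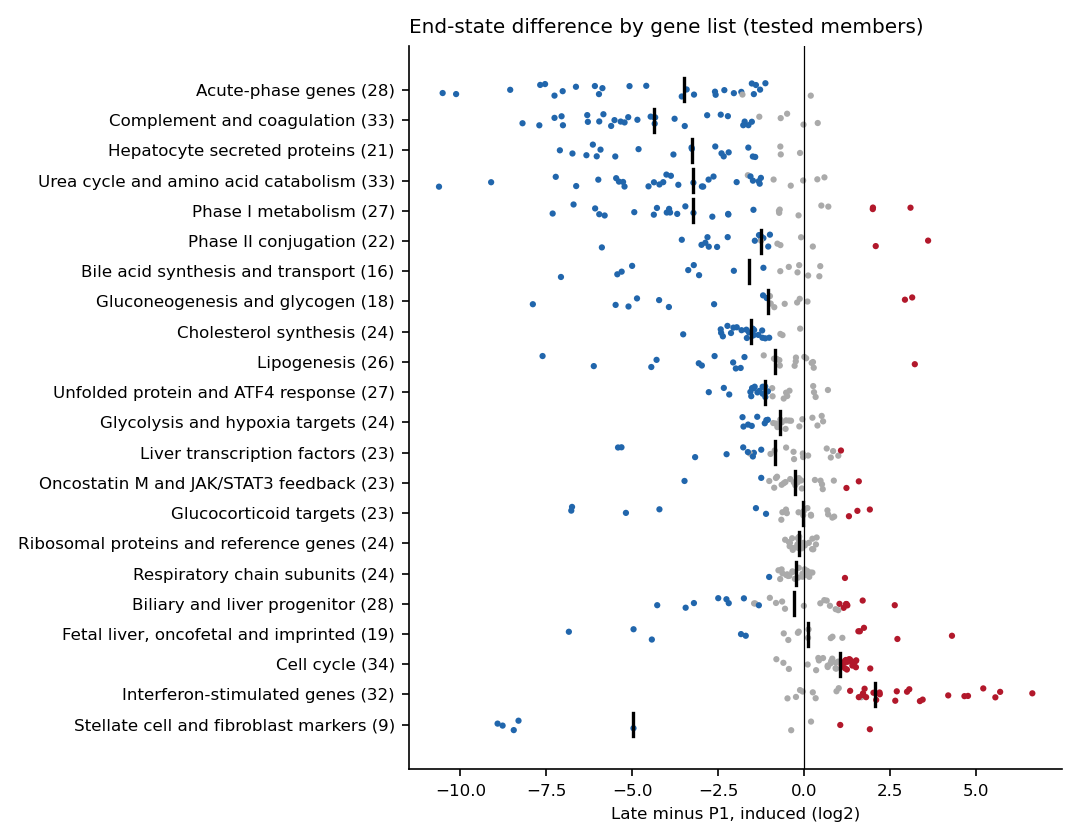
Late minus P1 differences (log2) of the tested members of 22 gene lists, with the number of tested members in parentheses. Blue and red points were called lower and higher, grey points were not called, and the bar is the median. Plasma protein and amino acid lists lie far to the left (medians -4.36 to -3.23), cholesterol synthesis closely around -1.56, and interferon-stimulated genes to the right (2.05).

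Of 23 tested transcription factors that define hepatocytes, 9 were lower and 1 higher, with a median of -0.86. Hnf4a, the central regulator of hepatocyte identity, was at 6.97, 6.69 and 7.05 in P1 and at 4.55, 4.90 and 5.93 in late (3.43-fold, limma adjusted p = 3.8e-05). Cebpa was lower by 2.77-fold, Rxra by 3.12-fold and Foxa1 by 4.80-fold. Nr5a2, a nuclear receptor of bile acid and acute-phase control, was the furthest apart, at 2.60, 2.68 and 2.93 in P1 and -2.65, -4.2 and -1.20 in late (42.7-fold).

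Socs3, the feedback inhibitor of JAK and STAT3, was at 5.84, 6.65 and 6.49 in P1 and at 6.18, 5.98 and 6.33 in late. Its difference of -0.16 had a 95% interval of -0.98 to 0.66 (limma adjusted p = 0.74), and the sign turned after quantile normalization. In late cells without inducers it was at 3.40, 2.85 and 3.45, and in P1 cells without them at 2.66, 2.98 and 2.15. Osmr, the oncostatin M receptor gene, differed by -0.09 (interval -0.60 to 0.41), also with the sign turned after quantile normalization. Fkbp5, a glucocorticoid receptor target, was 1.82-fold apart with late the higher, under the 2-fold limit. In the oncostatin M and JAK/STAT3 list 2 of 23 were higher and 2 lower, which is near the 9.33% and 11.8% of all tested genes. In the glucocorticoid list 3 of 23 were higher and 6 lower. The count of higher members in the glucocorticoid list was 5 after quantile normalization.

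Interferon-stimulated genes were the largest listed group that was higher in late. These genes code for antiviral sensors and effectors. Of 32 tested members, 23 were higher and 0 lower, with a median of 2.05. Oas2, an activator of antiviral RNA decay, was at -2.08, -2.14 and -2.06 in P1 and at 4.15, 1.09 and 5.13 in late. All late arrays were above all P1 arrays, with replicate 2 the lowest of the 3 (46.8-fold, limma adjusted p = 0.00042). Oas1a and Oas1f of the same family were higher by 36.7-fold and 31.6-fold. Isg15, a ubiquitin-like modifier, was at 1.39, 0.78 and 0.84 in P1 and at 5.03, 2.56 and 5.73 in late (10.8-fold), and the interferon regulator gene Irf7 was higher by 10.2-fold. The DNA sensor gene Ifi204 and the receptor transporter gene Rtp4 were higher by 23.3-fold and 22.8-fold. Ifi44 and Gbp3 were above background on no P1 array and at least 33.6-fold and 16.8-fold higher. For 31 of the 32 genes, late replicate 2 was the lowest of the late arrays.

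The interferon difference was there before induction. At day 0 26 of the 32 were higher in late and 0 lower (background 3.94% and 8.2%), with a median of 2.58. The day-8 median without inducers was 2.17. The difference of changes was called as higher for 1 and as lower for 1. Isg15 in late day-0 cells was at 6.67, 4.15 and 4.98, as high as after induction, and in P1 day-0 cells at 0.68, 0.98 and 0.00. Fresh hepatocytes had a mean of 3.85 for Isg15, 4.96 for Irf7 and 3.62 for Rtp4, above the P1 end state in each case, and -3.71 for Oas2.

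Promoters of Isg15 and Oas1a are shown as interferon-stimulated genes whose late arrays all lay above the P1 arrays (RefSeq, GRCm38.p6). Capitals mark an interferon-response-like motif, GAAA followed after any 2 bases by GAAA, searched on both strands, whose overlapping matches run together.
Isg15 (chr4:156200769-156201068, minus strand): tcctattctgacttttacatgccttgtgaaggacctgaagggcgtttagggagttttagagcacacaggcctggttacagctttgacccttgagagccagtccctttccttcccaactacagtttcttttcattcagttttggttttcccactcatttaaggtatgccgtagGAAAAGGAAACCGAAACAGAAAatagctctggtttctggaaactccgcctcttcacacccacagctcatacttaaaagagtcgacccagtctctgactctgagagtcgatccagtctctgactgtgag
Oas1a (chr5:120907476-120907775, minus strand): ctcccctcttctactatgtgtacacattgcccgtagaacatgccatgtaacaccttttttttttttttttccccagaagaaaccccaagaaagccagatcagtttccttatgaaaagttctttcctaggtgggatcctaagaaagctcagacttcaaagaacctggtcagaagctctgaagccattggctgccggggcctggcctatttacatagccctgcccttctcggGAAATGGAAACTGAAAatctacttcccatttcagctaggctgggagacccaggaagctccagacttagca
The motif was found 3 times in the Isg15 window and 2 times in that of Oas1a. It was in a promoter of 14 of the 25 interferon-stimulated genes matched and of 3.99% of all genes in the table. Among the large and bright genes with a promoter there, it was in 13 of 83 that were higher and in 6 of 227 that were lower. Oas2 and Rtp4 had no entry.

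Other genes higher in late belonged to no common list. Slc9a9, an endosomal proton exchanger gene, had the largest difference of a large and bright gene that was higher, at 4.33, 3.54 and 3.00 in late and -1.48, -1.99 and -2.35 in P1 (47.3-fold, limma adjusted p = 1.6e-08). Greb1, a growth gene known from oestrogen-responsive cells, was higher by 40.5-fold, the membrane protein genes Tmeff2, Ildr2 and Clstn2 by 39.7-fold, 28.9-fold and 21.2-fold, and Spns3, of a lipid transporter family, by 22-fold. Axl, a receptor kinase gene, was at 5.98, 5.89 and 5.53 in late and at 2.40, 2.45 and 1.24 in P1, so it was bright in both groups and 13.6-fold apart. Col6a1 of collagen VI was higher by 13.8-fold, at 5.50, 5.52 and 5.12 in late and at 1.6, 2.01 and 1.15 in P1. Etnppl, a phospholipid breakdown gene of hepatocytes, the stem cell receptor gene Lgr5 and the galectin gene Lgals2 were dim in P1 and at least 32.3-fold, 24.9-fold and 28.8-fold higher. By such bounds 6 genes were at least 16-fold higher and 41 lower (0.0293% and 0.2% of those tested), of which 5 and 34 have a gene symbol.

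Several of these genes were close at day 0 and apart after induction. Reg1, a secreted lectin gene of the gut and pancreas, was at -6.86, -6.18 and -6.42 in late and -6.01, -6.04 and -5.81 in P1 at day 0. After induction it was at 3.37, 2.92 and 3.11 in late and at -0.38, -0.32 and -1.11 in P1, and without inducers no array exceeded -5.14. The level in both induced groups lay above all other CLiP groups, with late the higher. At day 0 Reg1 was well above background on no array, and the floored difference of changes was 4.64 (limma adjusted p = 2.2e-09). Tspan8, a tetraspanin gene, took the opposite course. It was bright in both groups at day 0 (5.18, 5.27 and 5.34 in late and 4.42, 4.2 and 4.74 in P1) and was down to -2.11, -1.98 and -1.68 in induced P1 cells, while induced late cells were at 2.65, 2.19 and 2.26. Tinagl1, a matrix protein gene, was also down in both groups and further in P1 (difference of changes 2.60), but a gene mean over all probes took it to 0.38 (limma adjusted p = 0.22). Fjx1, a secreted kinase gene, was down in P1 from 1.19, 1.36 and 1.01 at day 0 to -0.56, -0.21 and -0.72, and in late it went from 2.02, 1.98 and 2.08 to 2.98, 2.67 and 2.27 (difference of changes 2.29). Pdlim4 and Ppp1r1b, which code for a cytoskeletal adaptor and a phosphatase inhibitor, were higher by 15.6-fold and 15.5-fold after induction. At day 8 without inducers they were already higher in late, by log2 differences of 1.75 and 2.56, against 0.20 for Reg1 and 0.53 for Tspan8. Another Ppp1r1b probe, well above background on all 6 arrays, gave a smaller difference of 1.53.

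Among single genes lower in late, Spink1, a secreted trypsin inhibitor gene, was at 6.63, 5.98 and 6.87 in P1 and at -1.06, -1.72 and -0.11 in late (176-fold). It was low in fresh hepatocytes (mean -2.10), unlike most of the genes above. Gjb2, the connexin 26 gene of hepatocyte gap junctions, was lower by 159-fold with late levels from -4.01 to 2.64. Slc39a8, a zinc and manganese importer gene, and Igfbp6, an inhibitor of insulin-like growth factors, were lower by 18.2-fold and 15.9-fold and differed little at day 0 (-0.21 and -0.39). At day 8 without inducers their differences were -2.49 and -0.75.

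Fetal and progenitor genes went both ways. In the fetal list 5 of 19 tested members were higher and 5 lower, and in the biliary and progenitor list 7 of 28 were higher and 8 lower. Spp1, the osteopontin gene of bile duct cells and CLiPs, was among the brightest on all 6 arrays, at 9.39, 9.29 and 9.55 in P1 and 8.90, 8.99 and 8.64 in late, a difference of -0.56 (interval -0.98 to -0.15) whose sign turned after quantile normalization. Sox9 was 2.21-fold higher in late and Cdh1, the E-cadherin gene, 2.37-fold higher. The claudin gene Cldn7 was lower by 10.9-fold and Epcam, well above background on 2 of 3 late arrays, by 9.26-fold, while the keratin genes Krt19 and Krt7 did not pass the test (-0.65, adjusted p = 0.37, and -1.43, adjusted p = 0.078, limma). For Cldn7, Epcam, Krt19 and Krt7 late replicate 1 was the highest late array, and the call of Cldn7 was lost with slide as a random block (adjusted p = 0.057). Afp, the fetal albumin-like gene, was at 5.38, 4.86 and 4.87 in P1 and at 2.67, 3.99 and 3.34 in late (3.26-fold lower), H19 was lower by 21.6-fold and the surface protein gene Ly6d by 115-fold.

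Igf2, the fetal growth factor gene, was far apart at day 0 and not called at the end. At day 0 it was at -4.85, -3.91 and -4.78 in late and at 1.99, 2.52 and 2.61 in P1. After induction it was at 3.44, 3.86 and 3.42 in late and at 2.68, 2.73 and 3.00 in P1, a difference of 0.77 (interval -0.10 to 1.63, limma adjusted p = 0.12). The floored difference of changes was 7.59 (limma adjusted p = 1.0e-07), late day-0 cells being well above background on 1 of 3 arrays.

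Cell cycle genes were higher in 17 of 34 tested cases and lower in 0, by small amounts (median 1.03). Mki67, the proliferation marker gene, was at 0.45, 0.41 and 0.35 in late and at -0.80, -0.75 and -1.39 in P1 (2.61-fold, limma adjusted p = 0.0029). At day 0 it was at 4.58, 4.63 and 4.66 in late and 4.48, 4.36 and 4.34 in P1, so both end states were far below their dividing cells. Mcm3 and Rrm1 of DNA replication and Ccnd1, the cyclin D1 gene, were higher by 2.26-fold, 2.23-fold and 2.35-fold. The count of 17 was 6 under normexp background correction. The inhibitor genes Cdkn1a, Cdkn2a and Cdkn2b were under 2-fold apart (-0.53, 0.84 and -0.54), and Vim, the vimentin gene, was at the limit with 2.02-fold.

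The remaining lists gave smaller or mixed counts. Of all tested genes 9.33% were higher and 11.8% lower, and counts near these shares say little about a list. Epithelial adhesion had 13 of 25 tested members lower and 1 higher, chemokines and cytokines 10 of 25 lower and 6 higher, and mesenchymal genes 9 of 26 lower and 4 higher. Wnt and Notch targets had 8 of 18 higher and 2 lower, with a median of 0.79 at the end and -0.02 at day 0. YAP/TEAD targets had 3 of 19 higher and 0 lower. Immediate early and heat shock genes had 4 of 23 lower and 0 higher. Matrix genes and integrins (3 higher and 6 lower of 25), NRF2 targets (3 and 6 of 22), CDK inhibitors and senescence genes (4 and 6 of 28) and fatty acid oxidation (2 and 4 of 24) went both ways. Respiratory chain subunits had 1 of 24 higher and 1 lower.

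Most tested markers of matrix-producing cells were higher in P1. Among 9 tested markers of stellate cells and fibroblasts, 5 were lower and 2 higher in late. Of the 9, 4 were above background on no late array and 1 on no P1 array. The 2 higher markers are not among the genes named here. Dcn, the decorin gene, was at 6.31, 6.12 and 5.42 in P1 and at -2.96, -3.16 and -1.37 in late (349-fold lower). Col1a1 was at 3.25, 2.74 and 0.48 in P1 and dim on every late array, at least 105-fold lower, and Col3a1, Lum and Adamts2, a procollagen processing gene, were at least 96.9-fold, 98.7-fold and 74.4-fold lower. P1 replicate 3 was the lowest P1 array for each of these 5 genes. Dcn at day 0 was at 3.40, 2.14 and 1.44 in P1 and -5.96, -5.47 and -5.65 in late, so this difference too preceded induction. Over the whole list of 17 markers, 8 were well above background on all P1 arrays and 5 on all late arrays, and the summed level (linear, relative to the 75th percentile) was 61.6 to 126 in P1 and 25.8 to 46.9 in late. Lrat, Reln, Pdgfra, Gfap, Hgf, Colec10 and Rgs5 were above background on no array of either group. Acta2 differed by 0.19 (interval -0.11 to 0.49), and a mean over its probes gave -1.44. The part of such cells in the other differences was not tested, and in these bulk samples fewer cells of a type and less RNA per cell cannot be told apart.

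Most markers of endothelial cells, macrophages and blood cells were not well above background. For endothelial cells, 3 of 15 genes were well above background on all P1 arrays and 5 on all late arrays. Their summed levels were 1.73 to 1.91 and 3.35 to 8.37, against 15.1 to 25 in fresh hepatocytes. Cdh5, Kdr, Tek and Lyve1 were above it on no array. For macrophages the counts were 4 and 6 of 16. The sums were 23.5 to 25.9 in P1 and 20.1 to 22.1 in late, against 27.8 to 61.8 in fresh hepatocytes. Csf1r, Ptprc and Itgam had a mean over the 6 arrays at or above 0, while Adgre1, Clec4f and Vsig4 were on no array above background. For mesothelial, lymphocyte and erythroid markers the counts were 2 and 1 of 8, 1 and 1 of 11, and 3 and 2 of 8. Mesothelial sums were at least 4.05 in P1 and 4.84 in late, above those of fresh hepatocytes (0.344 to 0.461). Lymphocyte sums were 2.09 to 3.32 in P1 and 1.62 to 1.69 in late, below the fresh sums of 4.77 to 5.64. Erythroid sums were 0.6 to 0.811 and 0.352 to 0.395, below the fresh sums of 3.65 to 4.68. The mesothelial gene Msln and the lymphocyte gene Cd3e also had a mean at or above 0. Of 20 genes of stomach and gut epithelium, 10 in P1 and 13 in late were well above background on all 3 arrays, with sums of 164 to 271 and 113 to 149. Of 13 tested, 4 were higher in late, Reg1 among them.

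Many of the large differences were already present in the cells before induction. Of the 344 large and bright genes lower at the end, 246 were also lower at day 0 (background 8.2%) and 2 were higher. At day 8 without inducers 228 were lower (background 7.68%), and 206 were lower in both. Of the 127 higher at the end, 67 were also higher at day 0 (background 3.94%) and 4 were lower. Without inducers 69 were higher (background 4.18%), and 53 were higher in both. These contrasts share the scanner difference. The difference of changes was called in the direction of the end state for 135 of the 344 and against it for 36, and for 72 and 1 of the 127. Of all tested genes 4.57% were called lower in it and 5.53% higher. The genes were chosen by their end-state difference, which is part of the difference of changes. A lean toward the end-state direction is therefore built into these counts.

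**Figure D4:**
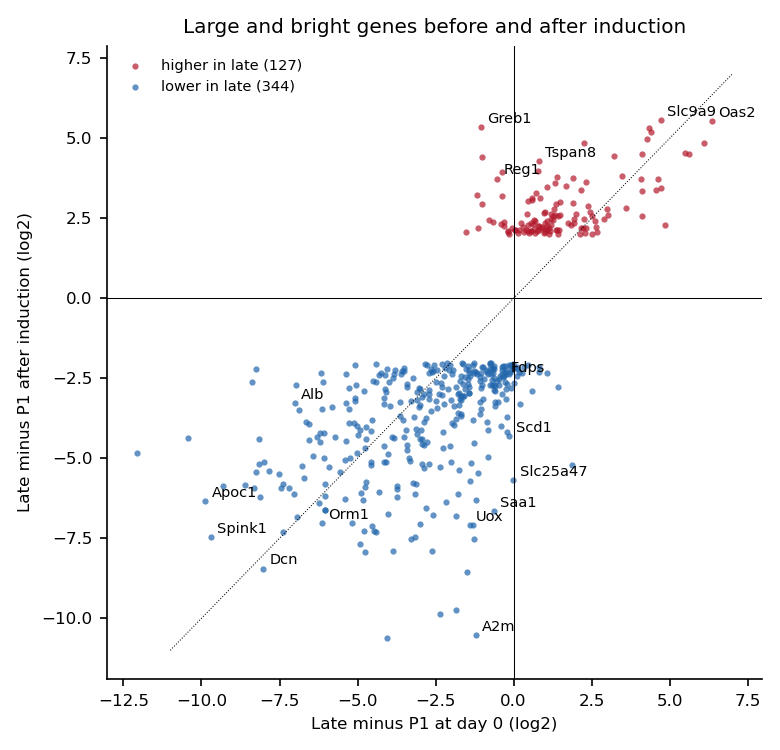
Late minus P1 difference after induction (y axis, log2) against that at day 0 (x axis, log2) for the large and bright genes, 127 higher and 344 lower; points on the dotted diagonal differed equally at both times. Apoc1 and Spink1 lie left of the diagonal (further apart at day 0), Dcn and Slc9a9 near it, and A2m, Saa1, Scd1 and Reg1 near the vertical line of no day-0 difference.

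Both courses occurred within the same lists. A2m was well above background on no day-0 array, differed by -5.15 at day 8 without inducers, and had a floored difference of changes of -9.61 (limma adjusted p = 1.7e-14). Saa1 differed by -0.64 at day 0 and was higher in late by 2.12 without inducers, at 4.01, 2.21 and 3.75 against 0.75, 1.28 and 1.58. With inducers P1 reached 8.35 or more and late stayed at 3.19 or less. For Slc25a47, Scd1, Slc27a5, Cyp3a11 and Tat the differences of changes were -5.67, -4.16, -5.77, -4.11 and -2.23, and for Fbp1, dim in late at day 0, the floored value was -6.20. In the amino acid list the difference of changes was lower for 20 of 33 and higher for 2 (4.57% and 5.53% of all tested genes). The secreted protein list had the reverse split, with 10 of 21 higher and 2 lower, and a day-0 median of -4.47. Alb was at -0.40, 0.56 and 3.46 in late and 8.18, 8.07 and 8.42 in P1 at day 0, so the rise to the end state was steeper in late cells, which remained below P1 (difference of changes 3.75, adjusted p = 0.044, limma). That call was lost in 8 alternatives, among them leaving out late replicate 1 or 3 or any P1 replicate, and held with replicate blocks within late and within P1, added after seeing the data (limma adjusted p = 0.002). Late cells kept 8 days without inducers were at 6.09, 4.6 and 6.6 for Alb, so their rise was there without the inducers too. Ttr had a day-0 difference of -2.66 and a difference of changes of 2.53. Nnmt was higher in late at day 0 by 1.43 and lower at the end, with a difference of changes of -4.21.

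**Figure D5:**
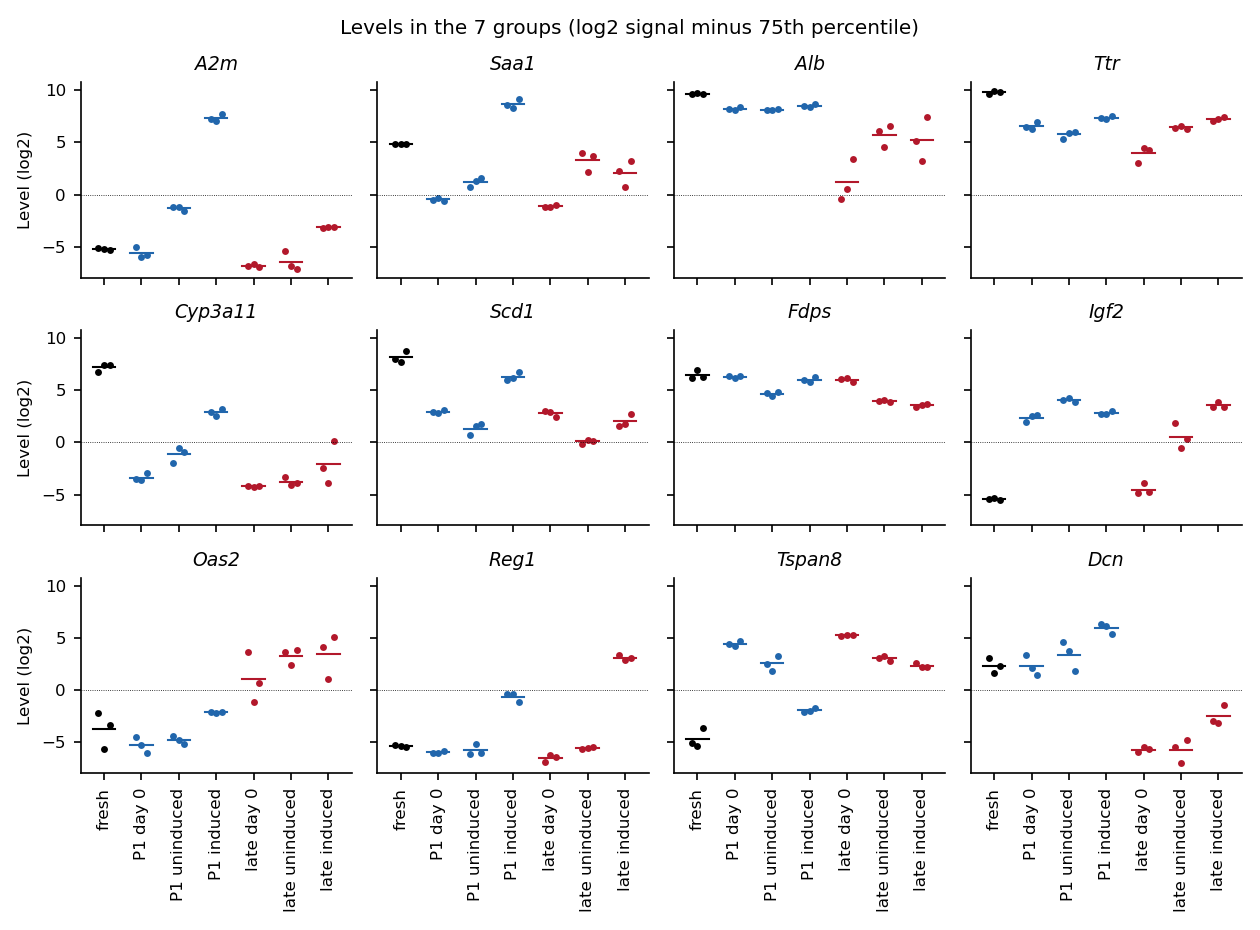
Levels of 12 genes (log2 signal minus 75th percentile) in the 7 groups; points are arrays and bars the means of 3, black for fresh, blue for P1 and red for late. A2m and Saa1 are highest in induced P1 cells, Oas2 is above every P1 array in all 3 late groups, Igf2 meets at the end after a day-0 gap, and Dcn is low in all 3 late groups.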

How the data were processed

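The 21 arrays were Agilent 1-colour mouse arrays, to which 100 ng of total RNA per sample was labelled with Cy3, per the labels' protocols. Spot intensities (processed signals) were deposited by the authors as scanner output, made with Feature Extraction 11.5.1.1 for fresh and P1 samples and 10.7.3.1 for late samples, per the file headers. The authors also deposited log2 tables, whose end-state differences matched those below within 2.2e-05 for 20437 genes, so they are on the same scale. Here log2 of the processed signal minus each array's 75th percentile was used. Control and outlier spots were left out, spots of 1 probe were averaged, and each gene was represented by its brightest probe; of 774 called genes with another probe well above background on all 6 arrays, 82 had such a probe of opposite sign. Gene names are those of the array design. A gene was tested if well above background on all 3 arrays of an induced group and unflagged on all arrays, which left out 39 genes. All 7 groups were fitted with limma 3.58.1 (R 4.3.3) with Benjamini-Hochberg adjustment over 20481 genes, and a call needed adjusted p under 0.05 and at least 2-fold. A gene above background on no array of 1 group was given a bound: the bright group's mean against the higher, per array, of the dim probe's signal and the lowest signal well above background. Named genes were the largest end-state differences each way (15 of the large and bright genes without overlap, 8 of those also at least 4-fold in the difference of changes and under 2-fold at day 0, and 8 bounds), a core set, and up to 4 bright members of a list. The genes and lists were chosen with earlier results of these data known. Same-numbered late arrays deviated together between day 0 and induction (correlations of 0.392, 0.28 and 0.247), where replicate 3 is labelled passage 11 and the others 12. For P1 arrays the correlations were 0.159, -0.0994 and 0.281. The fit was tested on simulated data. Alternatives were other normalizations, background correction, probe and filter rules, sample sets, slide and replicate blocks, and leaving out each induced array. Precision is limited by 3 arrays a group.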

Additional observations from a re-analysis of the deposited data

Results flagged for a closer look

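The 37 genes given here were chosen among the named genes. For them the change from day 0 to the induced end state differed between late and P1 cells. By limma's test of that difference their adjusted p ran from 3.0e-09 to 0.044. Of all tested genes 10.1% were called in it. Among the 37, 8 each way met a naming rule that required passing this test, so their passing was fixed by the choice. Other named genes also passed and are left out, among them Bhmt2 (-8.04) and Arg1 (-6.19), dim in late, Cpb2 (-5.3), Ildr2 (2.6) and Apoc1 (3.54). Values are log2, late change minus P1 change, and a constant offset between scanners cancels in them where the signal is above background. For 26 of the 37 genes it was so on all arrays of the 4 groups.

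Plasma protein genes were split. The difference was -9.31 for A2m, -7.06 for Orm3, -6 for Saa1, -4.24 for Saa2 and -4.04 for Serpinc1, while it was 3.75 for Alb, 2.53 for Ttr and 3.56 for Afp. Metabolic genes of the liver rose in P1 and gained less or almost nothing in late cells, where the mean of Scd1 fell. The values were -6.58 for Bhmt, -5.77 for Slc27a5, -5.67 for Slc25a47 and -4.21 for Nnmt. For Scd1, Cyp3a11, Fbp1 and Tat they were -4.16, -4.11, -4.04 and -2.23. In sterol, hypoxia and serine metabolism the values were -2.14 for Fdps, -2.24 for Lss, -2.37 for Egln3, -1.97 for Slc16a3 and -2.19 for Shmt2. The mean over all probes took Slc16a3 to -0.94, under 2-fold, and Tinagl1 to 0.38.

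Other genes with a lower value in late were Slc39a8 (-3.98), Igfbp6 (-3.60), 1700019G17Rik (-3.49) and AU040972 (-3.30). Those with a higher value were Igf2 (7.66), Greb1 (6.40), Clstn2 (5.42), Ppp1r1b (4.34), Reg1 (4.27), Cidea (3.58), Tspan8 (3.48), Pdlim4 (3.17), Tinagl1 (2.60), Akr1c19 (2.54), Cdh1 (2.49) and Fjx1 (2.29). The difference of changes includes what 8 days of culture change without inducers. At day 8 without inducers late was higher by 4.77 for Greb1 and 3.86 for Clstn2, after -1.06 and -1.01 at day 0. For Reg1 and Tspan8 the day-8 differences without inducers were 0.20 and 0.53.

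At day 0, 11 genes were not well above background on at least 1 array of late or P1. With levels raised to the lowest signal well above background on each array they became -9.61 for A2m, -7.65 for Orm3, -8.08 for Bhmt, -6.20 for Fbp1, -5.08 for Saa2, -1.97 for Slc16a3, 3.58 for Cidea, 5.31 for Clstn2, 6.24 for Greb1, 4.64 for Reg1 and 7.59 for Igf2. All 37 genes kept their direction and call in that alternative, which was added after seeing the data.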

How the results depend on the processing

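The end-state counts of 1911 higher and 2423 lower ranged from 1807 to 2071 and from 2290 to 2604 when each induced array was left out. Normexp background correction gave 1100 higher at the end, 523 at day 0 and 519 without induction, and 0 higher and 10 lower bounds of at least 16-fold. Requiring signal on all 6 induced arrays gave 1161, 505 and 522 higher. No filter on dim probes gave 10727, 6321 and 3854 lower, the added genes being the dim ones. A mean over all probes of a gene left 76 large and bright genes higher. Of 4334 calls, 93 changed sign under normexp and 67 with the mean over probes. With levels raised to the lowest signal well above background 140 changed sign, and in the other alternatives 0. Quantile normalization gave 2320 higher and 2114 lower and took the median of all tested genes from -0.02 to 0.09. Among genes with a symbol, leaving out arrays moved the bounds from 5 to between 4 and 8 higher (8 without late replicate 2) and from 34 to between 30 and 78 lower (78 without late replicate 3). Signs turned for Ttr (0.27 with quantile, 0.024 with cyclic loess, 0.23 with the mean over probes), Spp1 (0.18), Osmr (0.096) and Socs3 (0.10, all with quantile), Acta2 (-1.44 with the mean over probes) and Socs3 when P1 arrays were left out (-0.41 to 0.00039, the last without P1 replicate 2). G6pc was called without late replicate 3 (-2.09, limma adjusted p = 0.026), and Sox9 was under 2-fold without late replicate 2 (0.99). With the replicate block 1923 were higher and 2435 lower, and Krt7 was called (-1.43, limma adjusted p = 0.039). Same-numbered induced arrays of late and P1 correlated by 0.054, 0.066 and 0.12. Added after seeing the data, replicate blocks within late and within P1 gave 1239 higher and 995 lower for the difference of changes (1133 and 935 without), and raising levels to the lowest signal well above background gave 1494 higher and 2450 lower at the end. The causes were not tested.

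Scanner, software version and passage cannot be told apart. With 3 arrays a group all tests are limited, and probes near background have no reliable difference.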
